A study of Medicago truncatula with 6 samples.

Results

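The 6 genes described here belong to the programme by which a *Medicago truncatula* root hosts arbuscular mycorrhizal fungi. They are *MtPT4* (Medtr1g028600), *RAM1* (Medtr7g027190), *RAM2* (Medtr1g040500), *STR* (Medtr8g107450), *STR2* (Medtr5g030910) and *Vapyrin* (Medtr6g027840). They were chosen by gene ID among the 50443 genes of the deposited table. The rule uses none of their values, but it was set with earlier results of these data known. The table holds IDs and no names. The RefSeq gene table of assembly MtrunA17r5.0-ANR lists 5 of the 6 symbols (not *RAM1*) but no ID of this kind, so the pairing of names with IDs was taken as given.

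Arbuscular mycorrhizal fungi, which belong to Glomeromycotina, grow into the root cortex and form branched arbuscules inside its cells. The plant wraps each arbuscule in a membrane of its own, takes up phosphate there and feeds lipids to the fungus. RAM1 is a transcription factor of the GRAS family that switches on much of this programme. RAM2 is a glycerol-3-phosphate acyltransferase that makes a lipid precursor for the fungus, and STR and STR2 are ABC transporters of the G subfamily that act together at the arbuscule membrane. MtPT4 is the phosphate transporter of that membrane. Vapyrin, a protein with ankyrin repeats, is needed to let fungal hyphae, and also rhizobial infection threads, pass into root cells.

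Gongronella sp. w5 (w5) is a free-living soil fungus of Mucoromycotina, a different lineage. Roots of *M. truncatula* A17 grown on agar plates with w5 were taken 16 days after inoculation, and roots of plants grown alone served as the control, with 3 biological replicates in each group. The fungus grew on VI medium with glucose on one side of the plate and the plant on MSR medium without glucose on the other, while the control plants grew on MSR medium, so that the fungus and the glucose medium cannot be told apart. The labels do not give a sampling time for the controls. No roots with an arbuscular mycorrhizal fungus are among the samples, so there is no positive control for these genes. The paper describes w5 mycelia both outside the root and throughout its cells, and w5 spores inside root hairs. The comparison asks whether growth with w5 switched the mycorrhiza genes on.

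The read counts per gene are the authors' own and summed to between 6547753 and 7539956 per library. Levels are given as counts, as the deposited FPKM (counts scaled to gene length and library total), or as CPM (counts scaled to the library total after TMM scaling, which evens out library composition). A marker check of the root label was limited to descriptions in the study's own list of changed genes. The only gene found for the root was Medtr8g069775, described as high affinity nitrate transporter 2.7. It had between 7.93 and 14.6 CPM without w5 and between 22.8 and 46.4 CPM with w5. It was taken by its description alone, and whether it marks root tissue was not tested. The 2 genes of the rubisco small chain found there, markers of green tissue, summed to between 220 and 708 CPM without w5 and to between 79.3 and 110 CPM with w5, and no nodule marker was found. A further 13 genes described as chlorophyll a/b-binding, a list chosen after the values were seen, summed to between 2840 and 5790 CPM in the controls and to between 1410 and 2090 CPM with w5. All these markers come from a list picked for change in these same libraries, so that they moved is no independent evidence, and their part in the values below was not tested. In bulk roots, fewer cells of a type and less RNA per cell cannot be told apart.

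No switching on of the programme as a whole was detected in the roots with w5. *MtPT4*, *RAM1* and *RAM2* had no count in any library with w5. *STR* (1.27 FPKM without w5 and 1.34 FPKM with it) and *Vapyrin* (5.85 and 7.36 FPKM) were expressed in both groups, and *STR2* was low and scattered. The 2 genes that could be tested by edgeR after its filter, *STR* and *Vapyrin*, were not called as changed, where 3 of 16905 genes (0.0177%) were called at an adjusted p under 0.05. *RAM1* and *RAM2*, having no counts, could be called by no fit.

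The transcription factor gene *RAM1* had 0 counts in each of the 3 control libraries and 0 counts in each of the 3 libraries with w5. The 20042937 counts of the 3 libraries with w5 allow, at 3 counts, a level of up to 0.0739 FPKM for *RAM1*, and the 21609924 counts without w5 allow up to 0.0686 FPKM. These limits, like all limits and counting intervals given here, cover counting error only. *RAM1* transcript was therefore not detectable at this depth in either group, and no fold change can be given.

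The acyltransferase gene *RAM2* likewise had 0 counts in all 6 libraries. Its limit at 3 counts was 0.0784 FPKM over the libraries without w5 and 0.0845 FPKM over those with w5. In a single library, 3 counts would correspond to between 0.225 and 0.259 FPKM of *RAM2*. *RAM2* transcript was thus below detection in roots with w5 as in the controls.

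The phosphate transporter gene *MtPT4* had 0, 1 and 0 counts in the controls, and 0 counts in each library with w5. The single count, in control replicate 2, equals 0.0784 FPKM and has a 95% counting interval of 0.0253 to 5.57 counts (exact Poisson). With w5, 3 counts over the group would equal 0.0831 FPKM of *MtPT4*, and the upper end of the exact Poisson 95% interval was 0.102 FPKM. Both groups lie under the floor of 3 counts, so a difference between them is not measurable.

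**Figure D1:**
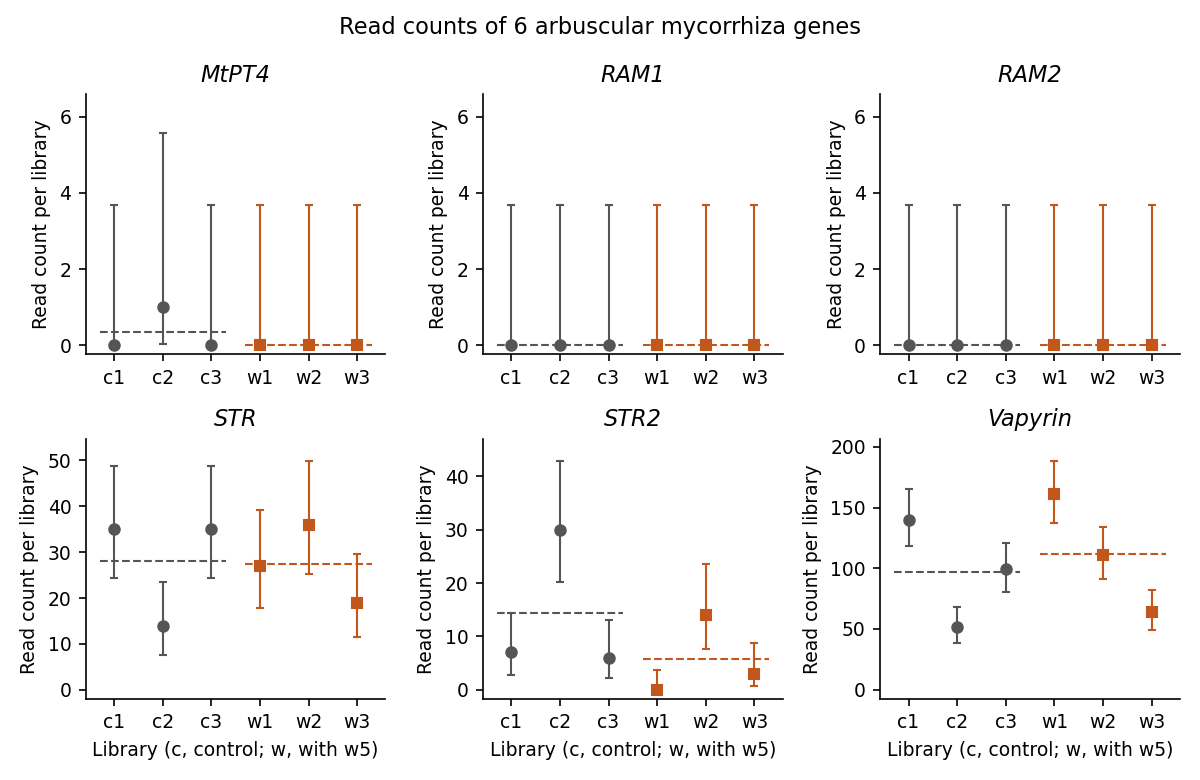
Read counts of the 6 genes in each library, with controls (c1 to c3) as grey circles and libraries with w5 (w1 to w3) as orange squares. Bars are exact Poisson 95% intervals of each count, dashed lines are group means, and the vertical axes differ between genes. *RAM1* and *RAM2* stay at 0, *MtPT4* has 1 count in c2, and in the other 3 genes the groups overlap.

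Genes without reads are common in this table, and such a result has to be read against that background. In all, 25066 of the 50443 genes (49.7%) had no count in any library, and 1253 had exactly 1 count over the 6 libraries, as did *MtPT4*. The share was smaller among long genes. Among the 12952 genes at least as long as *RAM2*, which is the shortest of the 6 with 1771 bases, 1121 (8.66%) had no count. Few genes without a count in the controls had counts in all libraries with w5. Of the 26405 genes with no count in the 3 controls, 55 (0.208%) had at least 1 count in each library with w5, and 6 had at least 3 counts in each. Most of the 26405 were the 25066 genes without a count in any library, which makes these shares small. Any count with w5 was found for 1339 (5.07%).

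**Figure D2:**
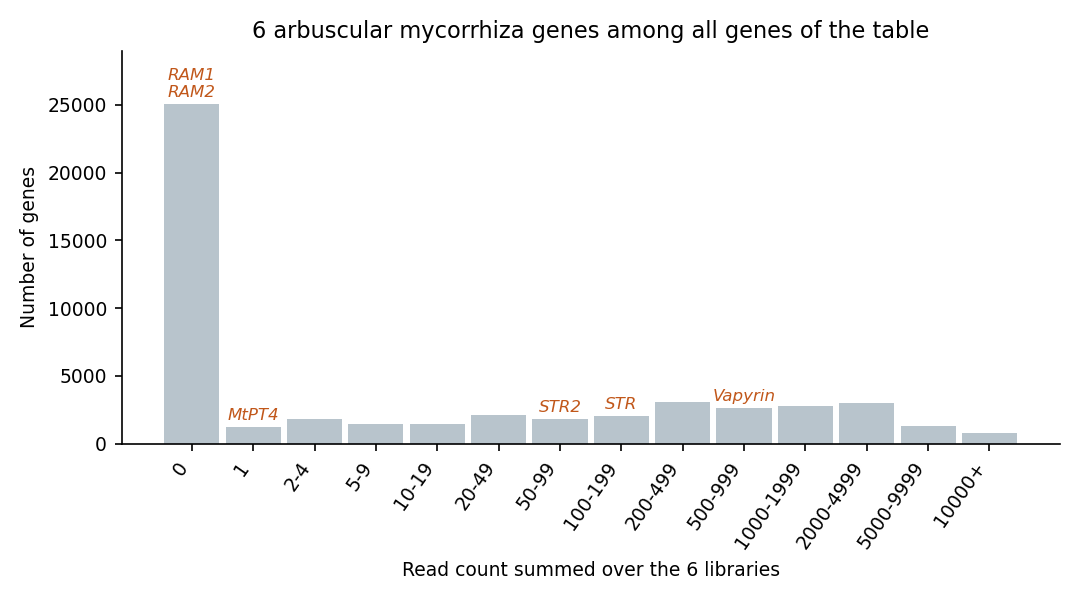
Number of genes (vertical axis) by read count summed over the 6 libraries (horizontal axis, bins of unequal width). *RAM1* and *RAM2* fall among the 25066 genes at 0, *MtPT4* among the 1253 genes at 1, and *STR2*, *STR* and *Vapyrin* have 60, 166 and 627 counts.

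The transporter gene *STR* was expressed in every library. Its counts were 35, 14 and 35 in the controls, and they were 27, 36 and 19 in the roots with w5. The groups overlapped over most of their ranges, with the lowest library a control and the highest one with w5. The mean level of *STR* in FPKM was 1.27 ± 0.542 in the controls, against 1.34 ± 0.398 in the roots with w5 (SD, n = 3 per group). In CPM these levels were 3.88 ± 1.67 and 4.11 ± 1.19 (SD, n = 3 per group). The quasi-likelihood test of edgeR gave *STR* a log2 fold change of 0.08 with w5, with a 95% interval of -0.93 to 1.09, a standard error of 0.44 and an adjusted p of 0.978. On the linear scale this is a 1.06-fold difference with an interval of 0.526 to 2.13, so a rise to more than 2.13-fold lies outside the interval and smaller ones do not. The sign turned when 1 library was left out, with a log2 fold change of -0.23 without control replicate 2 and of -0.13 without w5 replicate 2.

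Its partner gene *STR2* was the least even of the expressed genes. The controls gave 7, 30 and 6 counts of *STR2*, and the roots with w5 gave 0, 14 and 3. One control held most of the control reads, and the 14 counts of w5 replicate 2 lay above the other 2 controls, so the groups overlapped. The mean level of *STR2* in FPKM was 0.756 ± 0.726 in the controls, against 0.314 ± 0.406 in the roots with w5 (SD, n = 3 per group). The difference in CPM, w5 minus control, was -1.16 and had p = 0.5 in a two-sided exact permutation test, in which 3 libraries against 3 cannot give less than 0.1. Without control replicate 2 the control mean was 0.895 CPM, against 0.838 CPM with w5, a difference of -0.0569 CPM. *STR2* did not pass edgeR's expression filter. With no filter, its log2 fold change was -1.22 (95% interval -3.53 to 1.08, adjusted p = 0.804, edgeR), and with DESeq2 it was -1.24 (95% interval -3.48 to 0.997, adjusted p = 0.890). The interval holds a rise as well as a fall of *STR2*.

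STR and STR2 work together as a transporter, but their transcripts were not in a fixed proportion here. Per length, the level of *STR* was above that of *STR2* in 5 of 6 libraries. The ratio of *STR* to *STR2* in FPKM was 4.35, 0.406 and 5.07 in the controls. In w5 replicates 2 and 3 it was 2.24 and 5.51, and w5 replicate 1 had no *STR2* count. The ratio of 5.51 rests on 3 counts of *STR2*, which is the floor. Those of 4.35 and 5.07 rest on 7 and 6 counts, so these ratios carry a wide counting error. Control replicate 2 was the single library in which *STR2* was the higher of both, because it had the lowest *STR* and the highest *STR2* level.

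*Vapyrin* was the most abundant of the 6 genes. The controls gave 140, 52 and 99 counts of *Vapyrin*, and the roots with w5 gave 161, 111 and 64. The highest library was one with w5 and the lowest was a control, but w5 replicate 3 lay below 2 of the 3 controls. The mean level of *Vapyrin* in FPKM was 5.85 ± 2.48 in the controls, against 7.36 ± 3.29 in the roots with w5 (SD, n = 3 per group). In CPM these levels were 13.4 ± 5.65 and 16.9 ± 7.44 (SD, n = 3 per group). The same test gave *Vapyrin* a log2 fold change of 0.34, with a 95% interval of -0.60 to 1.27, a standard error of 0.41 and an adjusted p of 0.863 (edgeR). This is a 1.26-fold difference with an interval of 0.660 to 2.42. The difference between the mean levels, 3.54 CPM, was smaller than the SD of either group. The log2 fold change of *Vapyrin* was 0.05 without control replicate 2, -0.024 without w5 replicate 1, 0.66 without control replicate 1 and 0.61 without w5 replicate 3.

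Neither *STR* nor *Vapyrin*, the 2 genes that passed the expression filter, was called by edgeR at an adjusted p under 0.05 or at an unadjusted p under 0.05. Across all 16905 genes tested, 3 (0.0177%) were called at that adjusted p, 1881 (11.1%) had an unadjusted p under 0.05, and 806 (4.77%) had such a p together with an absolute log2 fold change over 1. With DESeq2, which gave an adjusted p to 17494 genes and called 540 of them (3.09%), none of *STR*, *STR2* and *Vapyrin* was called, and *MtPT4* received no adjusted p. With no filter, 195 of 25377 genes (0.768%) were called, none of them among the 4 detected members. The groups did not overlap in 16.1% of all tested genes, and in neither *STR* nor *Vapyrin*. With so few members tested, these shares do not set the 6 genes apart from the rest of the table.

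**Figure D3:**
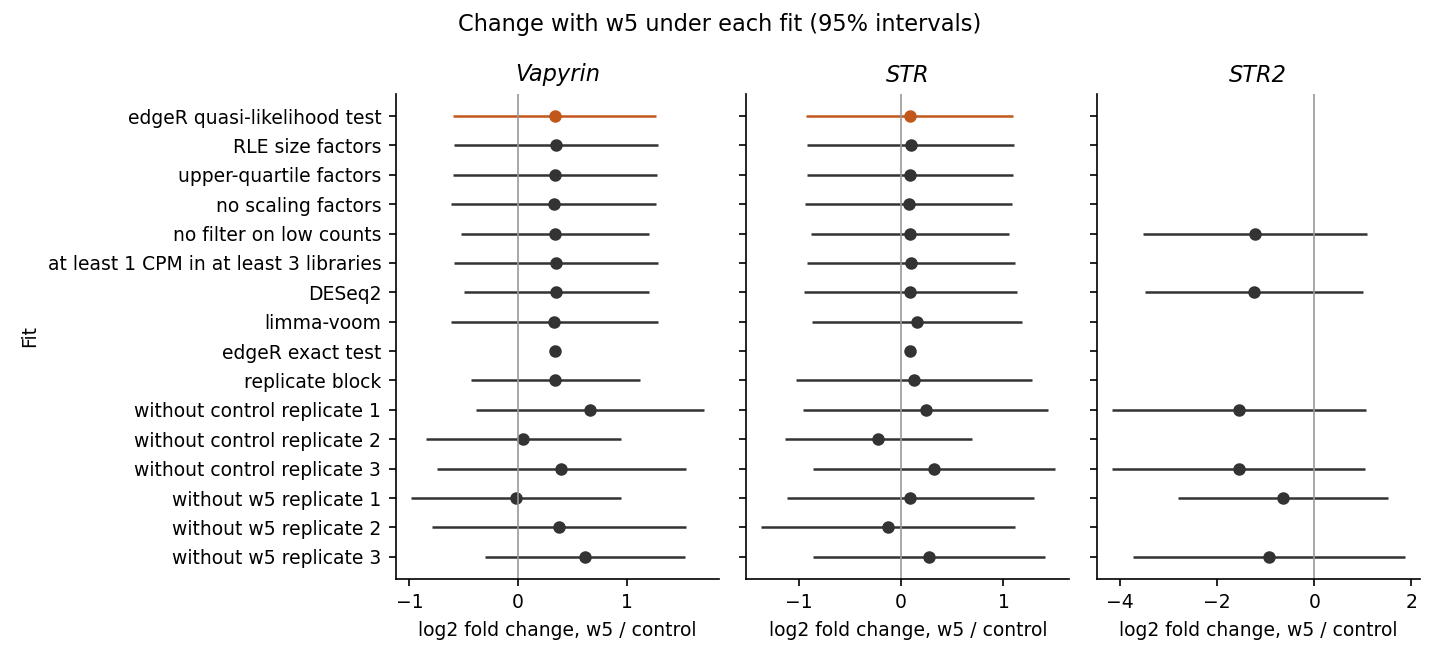
Log2 fold change of *Vapyrin*, *STR* and *STR2* with w5 over control (horizontal axis, scales differ between genes) in the quasi-likelihood test (orange) and in 15 alternative fits (black). Lines are 95% intervals, which the exact test does not give, and *STR2* appears only in the 6 fits whose filter kept it. Every interval drawn includes 0.

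Per length, the order of levels over all 6 libraries was *Vapyrin* (6.60 FPKM), *STR* (1.30 FPKM), *STR2* (0.535 FPKM) and *MtPT4* (0.0131 FPKM), followed by *RAM1* and *RAM2* at 0. *Vapyrin* stood clear of the others, with between 3.21 and 10.8 FPKM against a highest *STR* value of 1.73 FPKM. In FPKM, *Vapyrin* was between 3.78 and 7.97 times *STR* within a library. *STR* and *STR2* overlapped, with ranges of 0.647 to 1.73 and 0 to 1.59 FPKM. *STR2* and *MtPT4* overlapped at 0, and *MtPT4*, *RAM1* and *RAM2* cannot be ordered. Among the 25377 genes with at least 1 count, the mean FPKM of *Vapyrin* was above that of 58.4%, that of *STR* above 36.8% and that of *STR2* above 27.1%. The limits of the silent genes lie below the levels of *STR* and *Vapyrin* but not clearly below that of *STR2*, whose mean with w5 was 0.314 FPKM, and 0.0846 FPKM without w5 replicate 2. A level of *RAM1* at the limit of 3 counts with w5 would be 18.1-fold lower than the mean FPKM of *STR* and 99.6-fold lower than that of *Vapyrin*. At the same limit, *RAM2* would be 15.8-fold and *MtPT4* 16.1-fold lower than the mean FPKM of *STR* with w5. These ratios are not lower bounds. The exact Poisson limits are higher (0.0909, 0.104 and 0.102 FPKM for *RAM1*, *RAM2* and *MtPT4*), and the spread of *STR* and *Vapyrin* is left out.

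**Figure D4:**
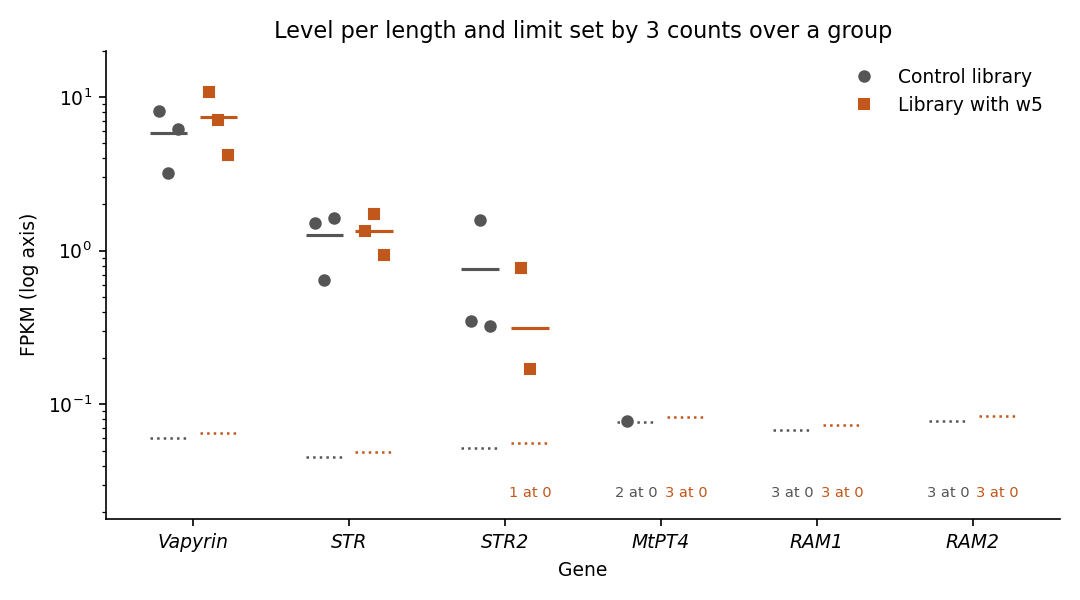
Deposited FPKM (vertical log axis) of the 6 genes in control libraries (grey circles) and libraries with w5 (orange squares). Solid lines are group means where a group has more than 3 counts, dotted lines are the level that 3 counts over a group of 3 libraries would give, and libraries at 0 are given as numbers because a log axis cannot show them. *Vapyrin* lies above *STR* in every library, and the dotted limits of *MtPT4*, *RAM1* and *RAM2* lie below every detected *STR* and *Vapyrin* value.

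Whether the 3 genes with more than 1 count varied together could not be settled over 6 libraries. *STR* and *Vapyrin* were both lowest in control replicate 2, where *STR2* was highest and the only *MtPT4* count fell. Over the 6 libraries, the CPM of *STR* and *Vapyrin* had a Pearson's r of 0.634 (exact permutation p = 0.181, adjusted p = 0.271 over 3 pairs) and a Spearman's rho of 0.486 (exact permutation p = 0.356, adjusted p = 0.534). In log2 CPM the r of this pair was 0.799. Control replicate 2 and w5 replicate 3 were farthest from the median of *STR* and hold the lowest *STR* levels of their groups. Without these 2 libraries, r in CPM was -0.912 over the other 4. Those 4 held between 27 and 36 counts of *STR* with overlapping counting intervals. Little variation in *STR* was left there, so the turned sign does not show whether the relation is stable. The pooled value rests on the 2 libraries left out. Within the 3 controls r was 0.873 and within the 3 libraries with w5 it was 0.453, each over too few points for a test. The other pairs had an r of -0.490 (*STR* and *STR2*) and of -0.644 (*Vapyrin* and *STR2*), with adjusted exact permutation p-values of 0.338 and 0.271, and these signs also turned without the 2 libraries farthest from the median of the first gene, to 0.901 (control replicate 2 and w5 replicate 3 left out) and to 0.540 (control replicate 2 and w5 replicate 1 left out). In log2 CPM over the 6 libraries, the genes closest to *STR* were Medtr4g094692 (r = 0.995) and Medtr7g086050 (r = 0.990), and those closest to *Vapyrin* were Medtr4g133120 (r = 0.998) and Medtr2g036900 (r = 0.990). These are the highest among all tested genes over 6 points and are given as a description only.

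A further 2 genes of the families of MtPT4 and RAM1 could be identified, both from the list of changed genes that the study drew from these same libraries, so that their direction is not independent evidence. Medtr7g096880, described as a high affinity inorganic phosphate transporter, gave 6, 16 and 15 counts in the controls but 55, 72 and 40 in the roots with w5. Every library with w5 lay above every control. Its log2 fold change was 2.27, with a 95% interval of 1.25 to 3.28 and a standard error of 0.45. The adjusted p was 0.0944 with edgeR and 9.67e-04 with DESeq2. With w5 it reached a mean of 2.88 FPKM, while *MtPT4* had no count. Medtr4g076140, described as a GRAS family transcription factor, gave 23, 38 and 27 counts in the controls but 50, 93 and 63 in the roots with w5. Its groups were also apart, and the log2 fold change was 1.33 with a standard error of 0.34, at an adjusted p of 0.162 with edgeR and of 0.0384 with DESeq2. For comparison, the groups did not overlap in 16.1% of all tested genes, and DESeq2 called 3.09% of its genes at an adjusted p under 0.05. Which phosphate transporter or GRAS factor each of them is was not identified here.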

How the data were processed

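Root RNA from 6 samples was sequenced by the study as read pairs with a stranded total RNA kit. The whole-number read counts per gene were deposited by the authors without normalization. The FPKM values were deposited by the authors and equal the count divided by gene length and library total (largest relative difference 5.09e-15 over 131099 values above 0). In the submitters' processing notes the aligner listed is Bowtie (version 0.12.2) and the build listed is mm8, a mouse genome. The paper names the *M. truncatula* genome database as its reference. How reads were assigned to genes, by which annotation version and whether by strand, is not given in the sources used here, and reads from close family members or antisense transcripts may be shared.

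Counts were analysed in R 4.3.3 with edgeR 4.0.16: filterByExpr kept 16905 of 50443 genes, TMM factors lay between 0.984 and 1.01, and the robust quasi-likelihood test compared w5 with control, adjusted by Benjamini-Hochberg over all genes tested. The median log2 fold change over these genes was -0.00586. The procedure was tested on simulated data. Alternatives used DESeq2 1.42.0, limma-voom (limma 3.58.1), the exact test of edgeR, other scaling factors (RLE, upper quartile, none), another filter (none, or 1 CPM in 3 libraries), a block on the replicate number, or 5 libraries, leaving out each in turn. A floor of 3 counts was used for genes at 0.

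The 6 genes and the lists were chosen with earlier results of these data known. All 6 were named, with the 2 closest genes by correlation and the family or marker genes found by their descriptions. The chlorophyll a/b-binding list was added after the data were seen and is given as a sum. The lists of G-type ABC transporters, glycerol-3-phosphate acyltransferases, vapyrin-like proteins and nodule markers found no gene. A further 14 IDs, of the arbuscule programme and of upstream signalling, were left out because no source paired them with a description. No sequences of the genes were used here.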

Additional observations from a re-analysis of the deposited data

How the results depend on the processing

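*STR* and *Vapyrin*, fitted in all 15 alternatives, and *STR2*, fitted in 6, were called in none of these, at an adjusted p under 0.05 or at an unadjusted p under 0.05 with an absolute log2 fold change over 1. Over all genes the latter threshold called 806 (4.77%), and between 800 and 1170 in the alternatives. *RAM1* and *RAM2*, having no counts, could be tested in none, and the main filter removed *STR2* and *MtPT4*. The count of 0 is therefore in part fixed in advance, by the lack of reads and by the filter. Leaving out a library moved the log2 fold change of *STR* between -0.23 and 0.32 and that of *Vapyrin* between -0.024 and 0.66, and with the replicate block they were 0.13 and 0.34. Their adjusted p lay between 0.853 and 1 and between 0.768 and 0.994 over the alternatives. For *STR2*, the difference in CPM lay between -1.77 and -0.0569 when a library was left out, and its adjusted p between 0.732 and 0.965 in the 6 fits that kept it. Across all genes, the 3 calls became 195 with no filter, 540 with DESeq2, 538 with edgeR's exact test, 176 with the replicate block, and between 1 and 103 with a library left out (103 without control replicate 3, and 1 without control replicate 1 or 2 or w5 replicate 1 or 2). The cause was not tested. The labels give replicate numbers and do not say whether libraries with the same number were paired. Such libraries had positively correlated deviations in 1 of 3 pairs (0.23, -0.0543 and -0.0276). Control replicates 2 and 3 correlated best with another number. With so few libraries, these correlations cannot decide whether a pairing or batch was present. Limits by exact Poisson (3.69 counts at 0) were 0.102, 0.0909 and 0.104 FPKM for *MtPT4*, *RAM1* and *RAM2* with w5. The depth of these libraries limits what can be said of the silent genes.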
